A study of Mus musculus with 13 samples.

Results

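Rat embryos that implanted in a mouse uterus beside mouse embryos were followed from day 7 to day 9 of pregnancy by the RNA of their whole implantation sites. The samples were chosen by their titles alone: 5 of the 13 arrays of the study, 3 from day 7 and 2 from day 9, each of them hybridised with RNA from rat embryo sites of uteri that had received rat and mouse embryos together. All 45037 of the 45101 probe sets that are not AFFX controls were kept as members, 22138 of them passed a filter on low signals, and these stood for 12003 genes with a symbol of their own. The other 8 arrays held mouse sites (mouse embryos transferred by themselves) and rat sites alone (rat embryos transferred by themselves), with 2 arrays for each of day 7 and day 9.

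Every group shared its recipients: female ICR mice of 25 g, which were given embryos on day 3 of pseudopregnancy, so the uterine tissue of each array came from an ICR mouse. Rat embryos were flushed from Wistar rats at day 5 of pregnancy, mouse embryos at day 4. The labels describe each sample as a whole site of about 100 mg of tissue. They give neither the number of sites or animals behind a sample nor the strain of the mouse embryos, and whether replicate arrays stand for different animals is not stated. The p-values therefore cover the variation among these arrays alone, part or all of which may be technical. The array's probes were designed on mouse transcripts, and a dim signal for a gene that only the embryo expresses can come from a rat transcript that binds them poorly, which was not tested.

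An implantation site joins an embryo to the maternal decidua, the tissue that uterine stromal cells form by proliferating and then differentiating under progesterone, with many of them becoming polyploid. In the mouse, the decidua closes off the epithelium of the uterine lumen, carries the first maternal blood supply to the embryo, and fills with natural killer cells of a uterine kind, which hold granzymes and perforin in granules and act on the maternal arteries. The embryo adds trophoblast, visceral endoderm and, with the yolk sac, the first red cells. The study compared rat sites with and without mouse embryos in the same uterus, with mouse sites as the control. The change between the days is described here for the co-transferred rat sites, beside that of the other sites.

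Signals are MAS5 signals on a linear scale, each array scaled to a trimmed mean of about 500, and array medians ran from 162.9 to 182.4 over the 5 arrays. The defining decidual genes were high on all 5: Prl8a2, a prolactin-like hormone of the decidua, read 20888 to 26423, and the decidual enzyme gene Tdo2 read 13398 to 15344. Replicates correlated at 0.974 on average within day 7 and at 0.982 within day 9 over all tested probe sets, against 0.927 between the days. Grouped by the hybridisation times in their headers, the arrays of the 2 days fell into different wash runs, so day and wash run cannot be told apart. Replicate 3 of day 7 was hybridised on another date and read on another scanner. The ratio of the Gapdh 3′ to 5′ probe sets, a measure of RNA integrity, was 2.95, 2.56 and 2.62 on day 7 and 3.76 and 4.07 on day 9, and its part in the results was not tested.

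A gene counted as called when limma gave it an adjusted p under 0.05 (Benjamini-Hochberg over all tested probe sets). From day 7 to day 9, 3351 of 12003 genes were called (27.9%), 1488 of them higher on day 9 (12.4%) and 1863 lower (15.5%). Most changes were small: 569 genes (4.74%) were both called and at least 2-fold apart, 361 higher (3.01%) and 208 lower (1.73%), and 103 (0.858%) were at least 4-fold apart. The median log2 change of all tested genes was −0.04. The signals of the 2 days did not overlap in 56.3% of all tested genes, so a lack of overlap is common here. At the level of probe sets, 5577 were called (25.2%), and leaving out either day 9 array lowered that count to 3296 (replicate 1) or 3353 (replicate 2). Folds are on the log2(signal + 57.1) scale, which understates changes of dim genes. A gene that is bright on 1 day only could pass the filter through that day. The gene lists and their members were also chosen with earlier results of these data known. Counts over lists below are therefore descriptions, to be read against the 12.4% of all genes called higher and the 15.5% called lower.

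The largest rise was in Rimklb on chromosome 6, which encodes a ligase that joins amino acids to N-acetylaspartate or citrate. Rimklb read 67, 29.2 and 157 on the day 7 arrays and 5926 and 5892 on the day 9 arrays, a log2 change of 5.50 ± 0.34 (SE, n = 3 and 2, adjusted p = 3.88e-06). All 4 of its tested probe sets were called higher, with log2 changes from 4.44 to 6.84. Akr1c18 on chromosome 13, whose enzyme inactivates progesterone, read 164, 76.9 and 56.3 and then 4293 and 4271, a log2 change of 4.86 ± 0.27 (adjusted p = 1.93e-06). Ada on chromosome 2, the adenosine deaminase that the mouse decidua makes in quantity, went from 710, 600 and 519 to 13820 and 14712, a log2 change of 4.43 ± 0.15 (adjusted p = 7.28e-08). On each of these genes the lowest day 9 array was more than 10 times the highest day 7 array.

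Further rises of this size were in genes of barrier epithelia and secreted proteins. Sprr2d, a small proline-rich protein of the cornified envelope, gained 4.87 on the log2 scale, and Klk7, a kallikrein protease known from skin, gained 4.12. Psca, a small surface antigen of epithelia, gained 4.27, Scgb1a1, the secretoglobin also called uteroglobin, 3.82, and Mrgprg, an orphan receptor, 4.60. S100a8, which encodes a calcium-binding protein best known from neutrophils, read 675, 820 and 779 on day 7 and 17849 and 16991 on day 9. Its usual partner S100a9 read 241, 232 and 158 and then 135 and 239, with overlapping days (adjusted p = 0.614). Procr, the endothelial receptor of protein C, gained 3.96, Adamts5, a protease that cuts aggrecan and versican, 3.66, and Crabp2, which carries retinoic acid to its receptors, 3.79.

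The largest falls reached a similar order of size. Aass, the first enzyme of lysine breakdown, read 1200, 1514 and 1254 on day 7 and 21.4 and 55.8 on day 9, a log2 change of −3.87 ± 0.25 (adjusted p = 5.04e-06). Agr2, a disulfide isomerase of mucus-secreting cells, read 1602, 1600 and 1589 and then 85.1 and 65.7, and its 2 tested probe sets fell by 3.65 and 2.45 on the log2 scale. In both genes the days were far apart on every array. Cdkn1c, an imprinted inhibitor of cyclin-dependent kinases, went from 1763, 1924 and 1577 to 295 and 303, and Timp3, an inhibitor of metalloproteinases, from 8304, 8108 and 8341 to 1670 and 1684. Sct, the hormone secretin, had a log2 change of −3.01, Gdpd3, a phosphodiesterase of lysophospholipids, −3.49 and Plekhg4 −3.06. The dopamine receptor gene Drd4 fell by 2.67, but its day 9 arrays differed from each other, at 344 and 64.

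**Figure D1:**
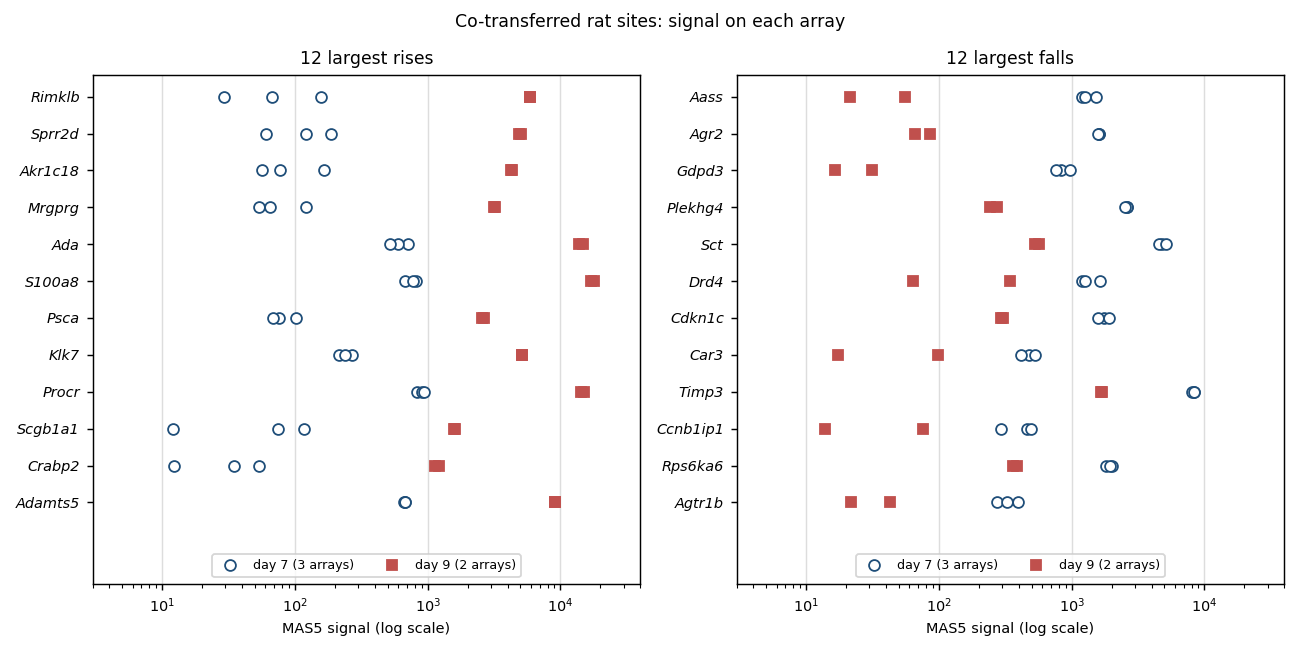
Signal on each array of the co-transferred rat sites (horizontal axis, MAS5 signal, log scale) for the 12 genes with the largest rises (left) and falls (right); open circles are the 3 day 7 arrays and filled squares the 2 day 9 arrays. The days do not overlap in any of these 24 genes, a condition of the choice, and dim values such as those of Scgb1a1 on day 7 or Drd4 on day 9 scatter most.

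Of the 45 tested decidual stroma genes, 7 were called higher and 15 lower, with a median log2 change of −0.15 (all genes: 12.4% higher, 15.5% lower). Htra1, a secreted serine protease, stood out among those that rose: it read 2107, 2116 and 2399 on day 7 and 18300 and 19386 on day 9, a log2 change of 3.06 ± 0.10 (adjusted p = 6.87e-08). Inhba, a subunit of activin, rose by 0.96, Bmp8a by 0.79, and the cell cycle inhibitor Cdkn1a by 0.65. Bmp2, the growth factor that decidualisation needs in the mouse, read 12003, 11301 and 12183 and then 6513 and 6562, a fall of 0.85 on the log2 scale with days that did not overlap (adjusted p = 0.000356). The cytokine Il11, also needed for a decidua in the mouse, fell by 1.46, Fkbp4, a cochaperone of the progesterone receptor, by 1.44 on 1 of its 3 probe sets, and Stra6, the receptor for retinol-binding protein, by 1.35. Leaving out replicate 1 of day 9 left 4 genes called higher.

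Prl8a2 kept its place among the brightest signals, at 26423, 20888 and 23315 on day 7 and 22101 and 23607 on day 9, and the days overlapped. The other decidual prolactin, Prl3c1, read 9870, 11116 and 11190 and then 6304 and 6340. Although these days did not overlap, its log2 change of −0.75 ± 0.26 was not called (adjusted p = 0.0621). Tdo2, which degrades tryptophan in the decidua, read 14994, 15344 and 14766 and then 13398 and 13698, with a log2 change of −0.15 that was not called either. In rat sites alone the same 2 genes fell, Prl3c1 from a mean of 9761 to 49.1 and Tdo2 from 15501 to 443, and the difference of the day changes was 5.89 for Prl3c1 (adjusted p = 5e-06) and 4.82 for Tdo2 (adjusted p = 7.4e-08).

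Genes of steroid handling moved in both directions, 5 of 21 tested being called higher and 4 lower (all genes: 12.4% and 15.5%). Besides Akr1c18, the rises were in Hsd11b1, which regenerates active glucocorticoid, from 2182, 1981 and 2213 to 6014 and 6404, in Hsd17b7, in Cyp11a1, which makes pregnenolone from cholesterol, and in Star, which brings cholesterol into mitochondria. Cyp11a1 read 3667, 3763 and 4109 and then 7013 and 7092, a log2 change of 0.87 (adjusted p = 7.98e-05). It rose by 0.26 in mouse sites and fell by 3.46 in rat sites alone. Akr1c14, Sult1d1 and Hsd17b1 fell by 0.49 to 0.66 on the log2 scale. Srd5a3 was counted as lower by its brightest probe set (−0.47), while another of its 4 was called higher (0.83).

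Among 19 retinoid genes, 6 were called higher and 9 lower (all genes: 12.4% and 15.5%), and the leading members moved by several-fold each way. Cyp26b1, which degrades retinoic acid, read 41, 23.2 and 34.4 on day 7 and 553 and 588 on day 9, and Aldh1a3, which makes it, read 66.3, 104 and 72.3 and then 1030 and 993. Bco1, which splits beta-carotene into retinal, went from 276, 283 and 390 to 2876 and 2819. Each of these sets of values left a wide gap between the days, and the log2 changes were 2.81, 2.96 and 2.97. Lrat, which stores retinol as esters, fell from 1374, 1414 and 1379 to 399 and 424. Without replicate 1 of day 9, 3 genes of the list were called lower, and without replicate 2, 5 were.

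The embryo's own genes gave little signal on either day. Hbb-y, an embryonic globin that marks the first red cells, read 11.8, 3.9 and 10.5 on day 7 and 9.4 and 7.8 on day 9. Hbb-bh1 read 7.8 to 50.1 over the 5 arrays and Hba-x 20 to 94.3, and in all 3 globins the days overlapped and nothing was called. Over 21 tested erythroid genes the summed signal was 13378 to 14318 on day 7 and 13793 to 14294 on day 9, while in mouse sites it went from 16724 and 17331 to 65960 and 67810. Most of the co-transferred sum came from Cited2, Fech and Car2, with means of 5851, 2012 and 1867 on day 7. In rat sites alone all 3 globins were called higher. Their means there went from 18.6 to 805 for Hbb-y, 34.4 to 422 for Hbb-bh1 and 19.4 to 148 for Hba-x. A gene counted as above the filter level on a day when at least 2 arrays of that day passed it, and as below otherwise. Of the 21, 13 were below it on both days of the co-transferred sites, and they were tested because at least 2 of the 13 arrays passed it. Of the 21, 4 were called higher and 1 lower (all genes: 12.4% and 15.5%). The rises were in Alas2, Runx1, Tmod1 and Fech, and the fall was in Cited2. Alas2, which makes heme precursors, read 16.4, 19.2 and 25.2 and then 123 and 201. Runx1 was called on 3 of its 5 tested probe sets, whose log2 changes ran from −0.56 to 2.49. Fech was called on 2 of 3 and Cited2 on 1 of 2. Leaving out replicate 1 of day 9 left 2 of the rises. In a whole site, fewer cells of a type and less RNA per cell cannot be told apart.

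The yolk sac genes gave the same kind of picture. Afp, the fetal serum protein alpha-fetoprotein, read 41.8, 7.8 and 21.1 on day 7 and 78.6 and 62.5 on day 9, a log2 change of 0.68 (adjusted p = 0.014) that was called on 1 of its 4 tested probe sets, against a rise from a mean of 31.6 to 10643 in mouse sites. Ttr, a carrier of thyroid hormone and of retinol-binding protein, fell from 533, 537 and 537 to 225 and 158. Of 29 tested visceral endoderm genes, 4 were called higher and 7 lower (all genes: 12.4% and 15.5%), with a median of −0.02. The list's median was 1.73 in mouse sites and 0.31 in rat sites alone. Without replicate 1 of day 9 the co-transferred counts were 1 and 4, and 4 were lower without replicate 2. Some of the called members have other known sources in the uterus: Spink1, a trypsin inhibitor of uterine glands, fell from 15210, 14179 and 14710 to 8217 and 8494, and Sox17, an endothelial and glandular transcription factor, rose from 1066, 1084 and 1175 to 2129 and 2149.

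Trophoblast genes divided. Of 12 tested prolactin-family genes of trophoblast (23 were listed and 15 were on the array), 10 were below the filter level on both days. Prl7a1 rose from 11.4, 6.2 and 24.7 to 59 and 56.1 (adjusted p = 0.00585), a level far under the 11213 of mouse sites on day 9. Prl6a1, the brightest of them, which the decidua also expresses, fell from 6139, 6193 and 5876 to 1948 and 1932, a log2 change of −1.62 ± 0.07 (adjusted p = 4.91e-07), and without replicate 3 of day 7 the list had 2 genes called lower. Prl4a1 and Prl2a1 read 15.5 to 111 and 51.5 to 147 over the 5 arrays, with days that overlapped. In rat sites alone 7 of the 12 were called higher and 2 lower (all genes: 19.9% and 22.4%). Prl7a1 rose there from a mean of 44.4 to 315 and Prl4a1 from 31.6 to 286. Among 27 other trophoblast genes, 7 were called higher in co-transferred sites and 2 lower (all genes: 12.4% and 15.5%). The count lower was 1 without replicate 1 or 3 of day 7 or replicate 1 of day 9. Tpbpa, a marker of spongiotrophoblast in the mouse, read 246, 186 and 110 and then 1011 and 978, and both of its tested probe sets rose, with log2 changes of 2.19 and 1.14. Slco2a1, a prostaglandin transporter, rose by 1.80 with all 3 of its probe sets called, and Tfap2c, a trophoblast transcription factor that the uterus also expresses, by 1.09. Hand1, needed for trophoblast giant cells, read 274, 194 and 229 and then 254 and 250 and was not called.

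Of 19 imprinted growth genes, 7 were called lower and 3 higher, with a median of −0.32 (all genes: 15.5% lower, 12.4% higher), and 1 higher without either day 9 array. Besides Cdkn1c, the falls included Phlda2, which restrains placental growth, from 309, 261 and 238 to 70.7 and 13, and Peg3, from 1095, 1220 and 1227 to 477 and 404. Peg3 was called on 1 of its 2 tested probe sets. All 3 genes rose in mouse sites, and the differences of the day changes were −3.00 for Cdkn1c, −4.83 for Phlda2 and −3.06 for Peg3, all called. In rat sites alone all 3 were called lower too, with log2 changes of −2.1, −0.85 and −0.88, and no difference from those sites was called. Of 18 tested genes of the embryo proper, 4 were called higher and 1 lower. Crabp2 led them, and the transcription factor Eomes, which natural killer cells also express, rose from 196, 232 and 314 to 446 and 452. Without replicate 1 of day 9, 1 gene of that list was called higher, and without replicate 1 or 2 of day 7, 2 were. Without replicate 2 of day 9, 2 genes were called lower.

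**Figure D2:**
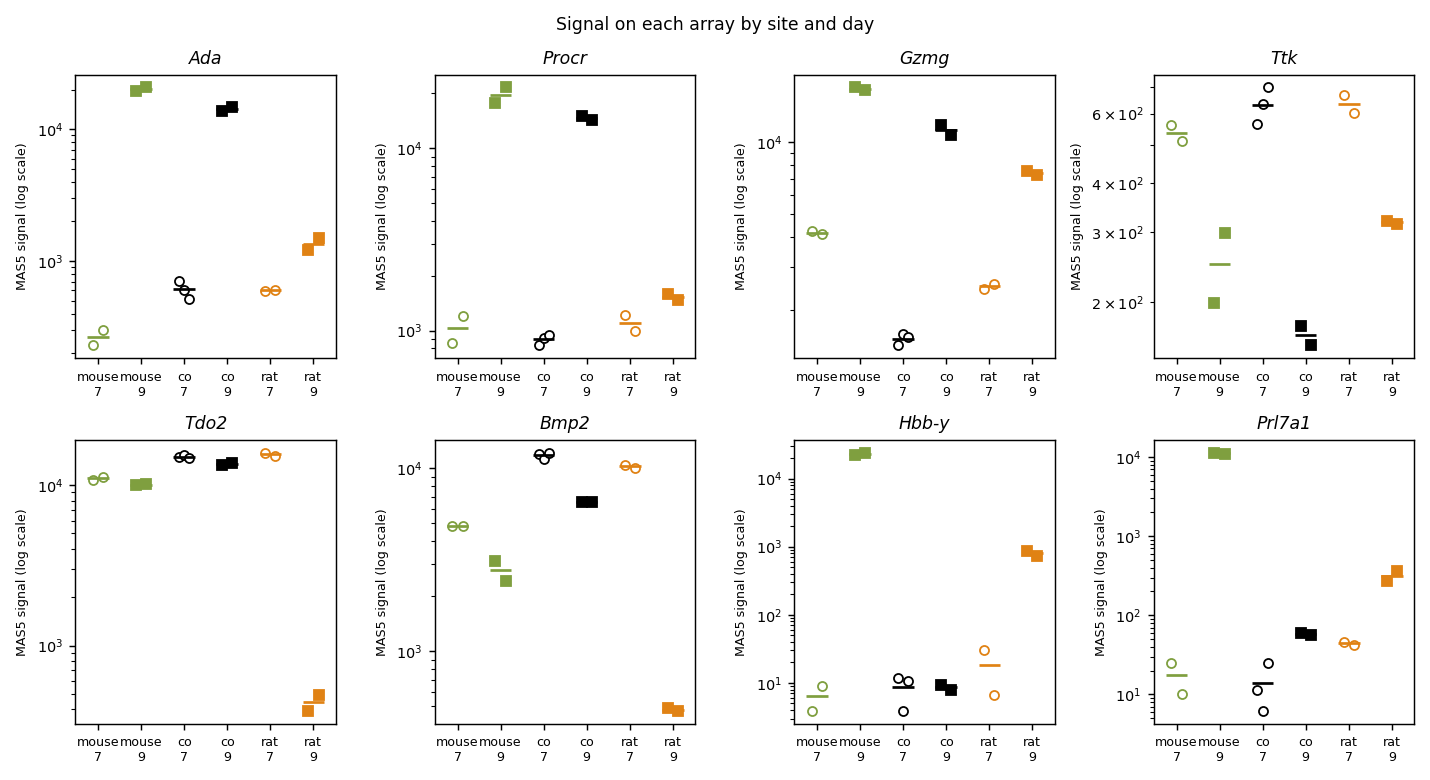
MAS5 signal (vertical axis, log scale) on each of the 13 arrays for 8 genes; open circles are day 7 and filled squares day 9, horizontal bars are group means, and colours mark mouse sites (green), co-transferred rat sites (co, black) and rat sites alone (orange). Ada, Procr and Gzmg rose in co-transferred sites as in mouse sites, Tdo2 and Bmp2 stayed bright on day 9 while rat sites alone fell to 443 and 481, and Hbb-y and Prl7a1 stayed under 60 in co-transferred sites.

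Of the 35 gene lists, that of the cell cycle held the most falls. Of 62 tested genes of DNA replication and mitosis, 48 were called lower and 1 higher, with a median log2 change of −0.79, where 15.5% of all genes were called lower. Ttk, a kinase of the spindle checkpoint, read 566, 633 and 699 on day 7 and 174 and 155 on day 9, a log2 change of −1.64 ± 0.14 (adjusted p = 3.52e-05). Bub1b, the checkpoint protein BubR1, read 1083, 952 and 1323 and then 356 and 410, a log2 change of −1.41 ± 0.15 (adjusted p = 0.000124). Ccne2, a cyclin of the entry into S phase, went from 899, 1069 and 914 to 330 and 405. In all 3 genes the highest day 9 array lay under the lowest day 7 array by more than a factor of 2.

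Both stages of division were among the falls. The replicative helicase genes Mcm2, Mcm3, Mcm4, Mcm5, Mcm6 and Mcm7 fell by 0.43 to 0.99 on the log2 scale. Mcm3 was called lower on 2 of its 4 tested probe sets, whose log2 changes ran from −0.84 to 0.21. Pole, the catalytic subunit of a replicative polymerase, fell by 1.38 from a dim 167, 225 and 136 to 32.6 and 29.6. Of the mitotic genes, Cdk1 fell by 1.12, Bub1 by 1.18, Plk1 by 0.95 and Aurka by 0.93. Fen1, the flap endonuclease of the lagging strand, was counted as higher by its brightest probe set, which rose from 4834, 4157 and 5508 to 6838 and 8143 with an adjusted p of 0.0309. Its other tested probe set was called lower, with a log2 change of −0.66, so Fen1 has no settled direction. The call of the first was lost when any of 4 of the 5 arrays was left out, all but replicate 3 of day 7. The genes named here from the list beyond Ttk, Bub1b, Pole, Ccne2, Fen1, Mcm2 and Mcm3 were picked after their values were seen. Of the 62 genes, 55 were above the filter level on both days, and 43 of these were called lower. The count lower was 40 to 47 with any 1 array left out.

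Mitotic and replication genes often carry a CCAAT box in their promoters, the site bound by the factor NF-Y, so the promoters of the leading falls are shown with it. Both windows are the 250 bases before the start site in RefSeq, build GRCm38.p6, written 5′ to 3′ on the gene's strand. Capitals mark CCAAT or its reverse complement ATTGG. Ttk lies at chr9:83834439-83834688 and Bub1b at chr2:118597961-118598210, both on the plus strand.
Ttk: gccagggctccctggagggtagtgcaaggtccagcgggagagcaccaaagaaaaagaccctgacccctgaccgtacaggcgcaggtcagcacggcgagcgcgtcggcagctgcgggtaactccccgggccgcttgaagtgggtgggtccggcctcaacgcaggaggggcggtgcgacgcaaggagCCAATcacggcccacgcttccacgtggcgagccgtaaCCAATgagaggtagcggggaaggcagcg
Bub1b: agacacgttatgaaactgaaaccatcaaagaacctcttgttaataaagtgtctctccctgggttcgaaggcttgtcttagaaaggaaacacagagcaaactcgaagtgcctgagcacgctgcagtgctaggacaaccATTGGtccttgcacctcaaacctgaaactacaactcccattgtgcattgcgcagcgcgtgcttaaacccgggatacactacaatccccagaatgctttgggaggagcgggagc
Of the 48 genes called lower, 37 had a window, and 29 of them (78.4%) held CCAAT on either strand in at least 1. Over windows, 33 of 44 (75.0%) held it, against 41 of 58 (70.7%) for all tested genes of the list and 11120 of 32851 (33.8%) for all promoters of this length. The letters TTTGAA, part of a cell cycle element, were in 27.3% of the 44 windows against 16% of all, and TTCCCGC, an E2F motif, in 15.9% against 3.82%, both strands being searched. These matches describe the letters of the windows and are not evidence of binding.

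The regulators around the cycle changed less. Of 22 D cyclin and polyploidy genes, 2 were called higher (1 without replicate 1 of day 9) and 6 lower. The shares of all genes were 12.4% and 15.5%. Cdk4 fell from 2927, 2830 and 3277 to 1652 and 1750, Pttg1, the securin, by 0.61 and Cdc25a by 0.65, while Cdkn1a rose. Pttg1 was called on 2 of its 3 tested probe sets and Cdc25a on 1 of 2. Ccnd1 read 2446, 2674 and 2592 and then 2406 and 2408 on its brightest probe set, which was not called, but 2 of its 3 tested probe sets were called lower, the lowest at −0.81. Ccnd2, at 247 to 494 over the 5 arrays, was not called on any of its 4 probe sets. The day change of the replication list had a median of −0.35 in mouse sites and −0.54 in rat sites alone. In the test of the difference, 17 of the 62 genes had a lower day change in co-transferred sites than in mouse sites and 13 a lower one than in rat sites alone (all genes: 8.76% and 13.7%), but after centring each array on its median these counts were 5 and 3.

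Natural killer cell genes made the list with the largest share of rises. Of 26 tested genes, 20 were called higher and 1 lower, with a median log2 change of 1.00, against 12.4% of all genes called higher. Gzmg, a granzyme, read 1418, 1577 and 1536 on day 7 and 11739 and 10650 on day 9, a log2 change of 2.84 ± 0.08 (adjusted p = 5.11e-08). Gzmc read 1054, 1153 and 1109 and then 6373 and 6320, a log2 change of 2.46 ± 0.08 (adjusted p = 6.87e-08). Gzmf, Gzmb and Gzma rose by 1.84, 1.65 and 1.57, and all 5 of these granzymes had day 9 arrays above every day 7 array. Prf1, the pore-forming perforin, rose by 1.81, Il2rb, the receptor chain for interleukin 15, by 1.35, and the receptor Klrg1 by 1.53, these 3 having been picked after their values were seen.

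The summed signal of the list went from 50936 to 52336 on day 7 to 109920 to 110324 on day 9. Il15, the cytokine these cells depend on, had a log2 change of −0.08 and was not called, although its presenting receptor Il15ra rose by 0.72, both named after their values were seen. Spint1, a protease inhibitor of epithelia, was the member that fell, from 859, 889 and 908 to 588 and 650, and this call was lost without replicate 1 of day 9. Of the 26 genes, 18 were above the filter level on both days and 15 of these were called higher. With any 1 array left out, 15 to 19 genes were called higher. The median was 1.08 in mouse sites and 0.50 in rat sites alone, and 14 of the 26 genes had a higher day change in co-transferred sites than in rat sites alone, against 14.9% of all genes, among them all 5 granzymes above, with differences from 1.20 to 1.48 on the log2 scale.

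Of 38 macrophage genes, 14 were called higher, 0 lower and 24 not called, with a median of 0.30 (all genes: 12.4% higher). At an unadjusted p under 0.05 in the limma fit, which was the tool used throughout, 0 macrophage genes were lower. Gpnmb, a glycoprotein of macrophages and other lysosome-rich cells, read 837, 945 and 967 and then 9661 and 9614, a log2 change of 3.32 ± 0.12 (adjusted p = 1.26e-07). Csf1r, the receptor for the macrophage growth factor, went from 3475, 3634 and 3906 to 10529 and 11100, and its ligand Csf1 from 456, 409 and 391 to 1052 and 1084. Fcer1g, a signalling chain shared by macrophages and natural killer cells, rose by 1.81. Adgre1, the gene of F4/80, read 862, 734 and 683 and then 900 and 954 with an adjusted p of 0.276, and C1qa read 358, 489 and 473 and then 480 and 405 (adjusted p = 0.956). Without replicate 2 of day 9, 9 genes were called. In rat sites alone Csf1r was not called and Gpnmb fell by 0.59, and the differences of the day changes were 1.51 and 3.91. The list as a whole rose more in rat sites alone, with a median of 0.92, 27 of the 38 genes called higher and 2 lower. Of the 38 genes, 7 had a higher day change in co-transferred sites than there and 14 a lower one (all genes: 14.9% and 13.7%).

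Of 16 tested genes of MHC class I presentation, 11 were called higher and 0 lower, with a median of 0.48 (all genes: 12.4% higher). The changes were modest. The immunoproteasome gene Psmb8 went from 599, 712 and 590 to 1318 and 1320, a log2 change of 1.00, and Psmb9 from 343, 376 and 481 to 872 and 784. The class I heavy chain genes H2-K1 and H2-D1, whose near-identical copies can share probes, rose by 0.47 and 0.57, and the peptide transporter Tap1 by 0.84. In each of these genes the days did not overlap. H2-K1 was called on all 4 of its tested probe sets, and H2-D1 on 4 of 8, with log2 changes from −0.06 to 1.1. At an unadjusted p under 0.05, limma gave 0 class I genes as lower. Class II genes followed for H2-Aa, H2-Ab1 and Cd74 out of 7 tested, by 0.57 to 0.77.

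Interferon response genes were called higher in 25 of 50 tested members and lower in 0, with a median of 0.60 (all genes: 12.4% higher). Ifit1, which binds foreign RNA, read 191, 284 and 244 on day 7 and 827 and 769 on day 9, a log2 change of 1.54 ± 0.14 (adjusted p = 4.22e-05). Rsad2, the antiviral enzyme viperin, read 376, 427 and 472 and then 1091 and 1130, and Gbp2, a GTPase that attacks vacuoles of microbes, 463, 548 and 427 and then 1107 and 1133. Zbp1, a sensor of nucleic acids, rose by 1.22. At an unadjusted p under 0.05, limma gave 1 genes of the list as lower. The rises did not extend to the whole list: Ifit2 read 837, 916 and 793 and then 858 and 1004, with a log2 change of 0.12 that was not called. Of the 50 genes, 41 were above the filter level on both days and 22 of these were called higher. The count was 19 to 23 with any 1 array left out.

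The promoters of 3 of these genes are shown because each holds the core of the interferon-stimulated response element, written as 2 copies of GAAA with any 2 bases between them, which STAT and IRF factors bind. The windows are 250 bases before the start site (RefSeq, GRCm38.p6) on the gene's strand, and capitals mark the motif, here in its reverse form. Ifit1 lies at chr19:34640639-34640888 on the plus strand, Rsad2 at chr12:26456453-26456702 on the minus strand and Gbp2 at chr3:142620413-142620662 on the plus strand.
Ifit1: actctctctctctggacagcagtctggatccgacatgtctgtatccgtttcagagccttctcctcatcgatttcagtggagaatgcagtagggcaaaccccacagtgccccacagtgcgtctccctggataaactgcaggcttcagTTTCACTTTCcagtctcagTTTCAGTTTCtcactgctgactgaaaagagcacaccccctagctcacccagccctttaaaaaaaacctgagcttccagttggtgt
Rsad2: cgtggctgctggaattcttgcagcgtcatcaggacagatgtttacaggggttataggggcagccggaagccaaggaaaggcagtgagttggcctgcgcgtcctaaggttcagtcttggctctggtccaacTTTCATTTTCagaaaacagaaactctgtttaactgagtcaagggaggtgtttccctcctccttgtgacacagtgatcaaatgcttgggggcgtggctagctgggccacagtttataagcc
Gbp2: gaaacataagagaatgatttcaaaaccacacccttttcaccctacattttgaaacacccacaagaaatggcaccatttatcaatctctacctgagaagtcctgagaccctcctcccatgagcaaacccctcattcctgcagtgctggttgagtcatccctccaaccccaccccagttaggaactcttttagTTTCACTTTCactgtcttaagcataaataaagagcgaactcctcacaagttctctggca
The motif was in 6 of 22 windows (27.3%) of the genes called higher, in 14 of 45 (31.1%) of all tested genes of the list and in 978 of 32851 (2.98%) of all promoter windows, both strands being searched. A match is a description of the letters and no evidence of a bound site.

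In rat sites alone the same interferon list had a median of 1.87, and 39 of its 50 genes had a lower day change in co-transferred sites than there, against 13.7% of all genes, and 32 after median centring. The means on day 9 were 1747 against 798 for Ifit1 and 5932 against 1120 for Gbp2. Gbp2 fell in mouse sites, by 0.93. The list's median in mouse sites was 0.14. Of the 50 genes, 12 had a higher day change in co-transferred sites than in mouse sites and 4 a lower one (all genes: 10.2% and 8.76%).

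Of 31 genes of neutrophils and acute inflammation, 11 were called higher and 1 lower, with a median of 0.40 (all genes: 12.4% and 15.5%). The largest rises were in S100a8, Il1r2 and Orm1. Il1r2, the decoy receptor for interleukin 1, read 218, 479 and 533 and then 4273 and 4185, a log2 change of 3.27, and Orm1, an acute-phase protein, read 16.1, 7.9 and 4.2 and then 395 and 373. Lcn2, an iron-sequestering protein of epithelia and neutrophils, rose from 292, 483 and 576 to 2062 and 2363. Of the tested genes for granule proteins of neutrophils, Ctsg, Ltf and Lcn2 were called higher, by 2.12, 1.11 and 2.20, while Mpo, Ngp and Mmp9 had log2 changes of −0.11, 0.08 and 0.40 and were not called. All of these but Lcn2 were named after their values were seen, and 13 of the 31 genes were below the filter level on both days. Ptx3, a pentraxin of the innate response, fell by 1.14.

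Genes of the uterine epithelium moved both ways, 9 of 53 higher and 17 lower (all genes: 12.4% and 15.5%), with a median of −0.19 and a summed signal of 107005 to 111684 on day 7 and 77021 to 80770 on day 9. The keratin gene Krt18 fell from 5467, 5177 and 5302 to 1870 and 1915, a log2 change of −1.46 ± 0.07 (adjusted p = 1.11e-06). Prss28, an implantation serine protease of uterine glands, fell from 18438, 17391 and 18743 to 6549 and 7724. Cgn, a protein of tight junctions, fell by 1.34 and Atp1b1, a subunit of the sodium pump, by 1.43. All 4 had days that did not overlap. The adhesion genes that define epithelium were not called: Epcam read 1285, 1385 and 1295 and then 1069 and 1175 (adjusted p = 0.0637), and Cdh1, E-cadherin, read 1593, 1934 and 1398 and then 1654 and 1687.

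Other genes of the same list rose, among them the protease inhibitor Slpi, from 386, 364 and 571 to 2231 and 2100, Sprr2f, from 290, 371 and 452 to 1497 and 1547, and Perp, a desmosome protein, from 1343, 1436 and 1390 to 4458 and 4686. In rat sites alone the epithelial list had a median of 1.37, and 37 of its 53 genes were called lower in the difference between the day changes, against 13.7% of all genes. The day 9 arrays of rat sites alone read 6737.2 and 6209.4 on the middle 18S probe set and the other 11 arrays 522.4 to 1933.1, and its part in any difference from rat sites alone was not tested. Krt18 rose there from a mean of 4937 to 11853 and Epcam from 1452 to 7200, and the differences were −2.72 and −2.49, both called.

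Of 56 tested vessel genes, 24 rose and 5 fell, with a median of 0.29 (all genes: 12.4% higher, 15.5% lower). Angpt2, which loosens vessels for remodelling, read 1760, 1698 and 1652 and then 7303 and 7681, a log2 change of 2.10 ± 0.13 (adjusted p = 3.59e-06). Aqp1, a water channel of endothelium, went from 1045, 951 and 1091 to 4363 and 4312, and Angpt4 from 364, 748 and 790 to 2287 and 2298. The other of the 2 tested probe sets of Angpt4 had a log2 change of −0.02 and was not called. The general endothelial genes Pecam1 and Cdh5 rose as well, Cdh5, VE-cadherin, from 1754, 2076 and 1493 to 3790 and 3822, and the clotting carrier Vwf rose by 1.30. Vegfa, the main growth factor of vessels, fell from 2276, 2179 and 2271 to 1649 and 1468, and Efnb2, a marker of arteries, fell by 1.11 and Esm1, a marker of sprouting tips, by 0.95. With either day 9 array left out, 19 (replicate 1) or 16 (replicate 2) genes were called higher, and 2 lower without replicate 2.

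In rat sites alone Angpt2, Angpt4 and Cdh5 fell, and 25 of the 56 vessel genes had a higher day change in co-transferred sites and 6 a lower one, against 14.9% and 13.7% of all genes. The difference was 3.44 for Angpt2, 5.40 for Angpt4 and 1.83 for Cdh5. Of 29 genes of complement and coagulation, 9 rose and 4 fell in co-transferred sites (all genes: 12.4% and 15.5%). Procr led, followed by Masp1, a protease of the lectin pathway, from 368, 343 and 282 to 2850 and 2622. Tfpi2, a protease inhibitor that is imprinted in the placenta, rose from 500, 505 and 435 to 1351 and 1416. Clu fell by 0.55 and C1s1 by 0.63, and without replicate 1 of day 9, 1 gene of the list was called lower.

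**Figure D3:**
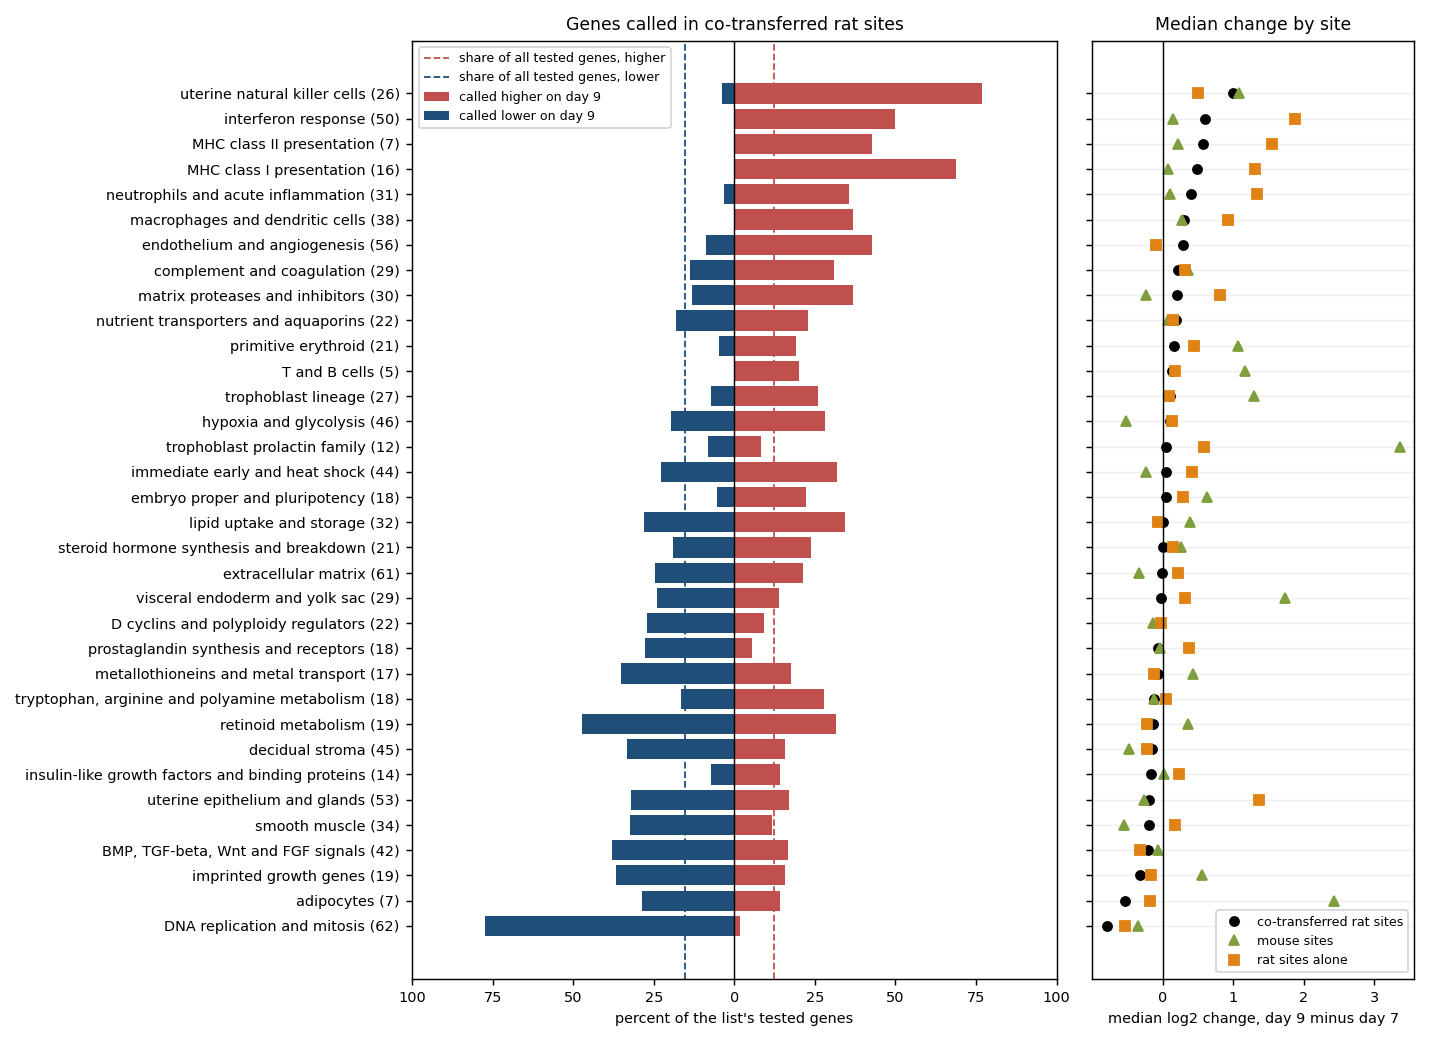
For each gene list with at least 5 tested genes (number in brackets), the left panel gives the percent of genes called higher (red, to the right) and lower (blue, to the left) in co-transferred rat sites, with dashed lines at the shares of all genes, 12.4% and 15.5%. The right panel gives the median log2 change from day 7 to day 9 in the 3 kinds of site: natural killer genes stand at 1.00 and replication genes at −0.79 in co-transferred sites, and trophoblast prolactins at 0.05 there and 3.36 in mouse sites.

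Matrix genes were divided, with 13 of 61 called higher, 15 lower (all genes: 12.4% and 15.5%) and a median of −0.01. Fbln2, a fibulin of basement membranes and elastic fibres, rose from 1297, 1132 and 1269 to 6386 and 6522, a log2 change of 2.34 ± 0.09 (adjusted p = 2.26e-07), and Mfap5 from 5540, 5382 and 5746 to 11022 and 11206. Vcan, the proteoglycan versican, fell from 4334, 4522 and 4672 to 1684 and 1644, Lama1 from 886, 666 and 693 to 258 and 212, and Col14a1 from 7324, 7229 and 7788 to 2879 and 3028. Col1a1 fell by 0.87 on 1 of its 2 tested probe sets, while the other had a log2 change of 0.39 and was not called. Its partner chain Col1a2 had a log2 change of 0.10 and was not called. Without replicate 1 of day 9, 8 matrix genes were called higher, and without replicate 2, 6 were.

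Of 30 matrix proteases and inhibitors, 11 rose and 4 fell (all genes: 12.4% higher, 15.5% lower). Ctsk, a collagen-degrading cathepsin, went from 744, 793 and 706 to 4311 and 4134, and Adamts5 rose as above. The matrilysin gene Mmp7 fell from 2449, 2422 and 2806 to 747 and 561. Mmp3 read 234, 204 and 168 and then 206 and 235 and was not called, and Mmp13 rose to 90.9 and 82.9 from 37.4, 39.6 and 5.5, whereas in rat sites alone Mmp3 and Mmp13 reached 4869 and 5837 on day 9. Smooth muscle genes were lower in 11 of 34 and higher in 4, led by Hspb7, a small heat shock protein, which rose from 576, 375 and 578 to 3766 and 3651. The main actin genes Acta2 and Actg2 had log2 changes of −0.14 and 0.03 and were not called, and the count lower was 7 without replicate 2 of day 7, 4 without replicate 1 of day 9 and 5 without replicate 2 of day 9.

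Growth factor signals of the BMP, TGF-beta, Wnt and FGF families were lower in 16 of 42 and higher in 7, with a median of −0.21. Of all genes, 15.5% were called lower and 12.4% higher. Tgfb2 rose from 586, 675 and 633 to 1630 and 1887, and Id2, a target of BMP signals, from 2205, 2733 and 2299 to 5766 and 5082. Gdf10, a BMP relative, fell from 595, 528 and 575 to 188 and 80.5, Sfrp2, a Wnt antagonist, from 1296, 1522 and 1419 to 671 and 448, and Bmp6 from 347, 368 and 334 to 123 and 162. The days did not overlap in any of these 5 genes. Of 14 genes of insulin-like growth factors, Igfbp5 and Igfbp6 rose by 0.57 each and Igfbp4 fell by 0.46. Igfbp5 rose on 1 of its 2 tested probe sets, and the other had a log2 change of −0.16 and was not called. Igf1 read 5527, 5616 and 5697 and then 6214 and 6134 and was not called.

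Lipid genes gave large single changes in a list that was otherwise balanced, with 11 of 32 higher and 9 lower (all genes: 12.4% and 15.5%). Lipg, the endothelial lipase, read 1288, 1332 and 1528 and then 13353 and 13887, a log2 change of 3.25 ± 0.10 (adjusted p = 5.11e-08). Vldlr, a lipoprotein receptor, went from 2926, 3437 and 3292 to 8671 and 8621 and Fabp4, a fatty acid carrier of endothelium and fat, from 5224, 5669 and 5224 to 12560 and 12957. Dgat2, which makes triglyceride, fell from 2924, 2818 and 2973 to 938 and 1003, and Ldhb from 5767, 5220 and 5439 to 1999 and 1898. Without replicate 1 of day 9 the counts were 6 and 4, and without replicate 2 they were 7 and 5. Leaving out replicate 2 or 3 of day 7 gave 5 or 4 genes lower. Fabp4 also stands among 7 tested adipocyte genes, of which Adipoq read 59.6, 83.4 and 57.3 and then 11.7 and 49.3 and was not called, while in mouse sites it rose from a mean of 44.2 to 1956.

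Hypoxia and glycolysis genes were called higher in 13 of 46 and lower in 9 (all genes: 12.4% and 15.5%). Adm, the vasodilator adrenomedullin, rose from 751, 1099 and 918 to 2303 and 2217, Egln3, an oxygen-sensing hydroxylase, from 200, 206 and 221 to 552 and 566, and Ndrg1 by 1.14. Slc2a1, the glucose transporter GLUT1, fell from 13592, 12700 and 14136 to 5140 and 5484, a log2 change of −1.33 ± 0.09 (adjusted p = 6.29e-06). The hexokinases Hk1 and Hk2 were not called. Against mouse sites, where the list's median was −0.52, 30 of the 46 genes were called higher in the difference of the day changes (10.2% of all genes), 22 after quantile normalization and 33 after median centring. In mouse sites the day 7 arrays had Gapdh 3′ to 5′ ratios of 1.54 and 1.44 and differed in this from all other arrays, and the part of this in the difference was not tested.

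Early response and heat shock genes gave 14 rises and 10 falls among 44 (all genes: 12.4% higher, 15.5% lower). Gadd45g, a growth arrest gene, read 1071, 1268 and 1185 and then 5190 and 5623, and Fos went from 1589, 1775 and 1627 to 3103 and 3210. Bag3, a cochaperone, rose by 1.02 and the mitochondrial chaperone Hspd1 fell by 0.71. Without replicate 1 of day 9 these counts were 9 and 6, and 6 genes were lower without replicate 2. Of 18 prostaglandin genes, 1 rose and 5 fell, the falls including Pla2g4a, the phospholipase that frees arachidonic acid, from 1909, 2075 and 1742 to 858 and 946, and the receptor Ptger4 from 3165, 3410 and 3098 to 1483 and 1609. Without replicate 1 or replicate 2 of day 9, 3 of these were called lower, and without replicate 1 of day 7, 2 genes were called higher. Ptgs2, the inducible cyclooxygenase, read 334, 423 and 441 and then 416 and 310 and was not called.

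Of 18 genes of tryptophan, arginine and polyamine metabolism, 5 rose and 3 fell. For this list and the metal and transporter lists below, the shares of all genes were 12.4% higher and 15.5% lower. Gatm, the first enzyme of creatine synthesis, rose from 2536, 2885 and 2613 to 7624 and 7398, and Arg2, the mitochondrial arginase, fell from 1219, 1302 and 1373 to 296 and 336, a log2 change of −1.86 ± 0.09 (adjusted p = 1.08e-06). The count of rises was 2 without replicate 2 of day 9 and 3 without replicate 1 of either day or replicate 3 of day 7. Metal genes gave 3 rises and 6 falls among 17, the metallothionein Mt1 rising from 11940, 11189 and 12178 to 18552 and 19498 while Mt2, at 14832 to 17510 over the 5 arrays, was not called. Slc39a4, a zinc importer, fell from 1250, 1387 and 1513 to 428 and 467, and 3 of the falls were left without replicate 1 of day 9 and 2 without replicate 2. Among 22 transporters, 5 rose and 4 fell, Slc7a5, which imports large neutral amino acids, from 116, 79.4 and 192 to 446 and 321. Of 5 tested T and B cell genes, Jchain, the joining chain of secreted antibody, rose from 410, 393 and 316 to 1200 and 946, and the others, Cd8a, Zap70, Ighm and Cd22, were not called.

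The rises of co-transferred sites were shared with mouse sites in more genes than with rat sites alone, and the falls in about as many. Of the 361 genes that rose at least 2-fold, 293 were called higher in mouse sites as well and 12 lower, whereas 146 were called higher in rat sites alone and 79 lower. Of the 208 genes that fell at least 2-fold, 138 were lower in mouse sites and 140 in rat sites alone. The background shares were 20.5% higher and 24% lower in mouse sites and 19.9% and 22.4% in rat sites alone. Over the 22138 probe sets tested, the day changes correlated at r = 0.48 with those of mouse sites and at 0.267 with those of rat sites alone, a description across probe sets that do not vary independently. The 3 comparisons share no arrays.

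**Figure D4:**
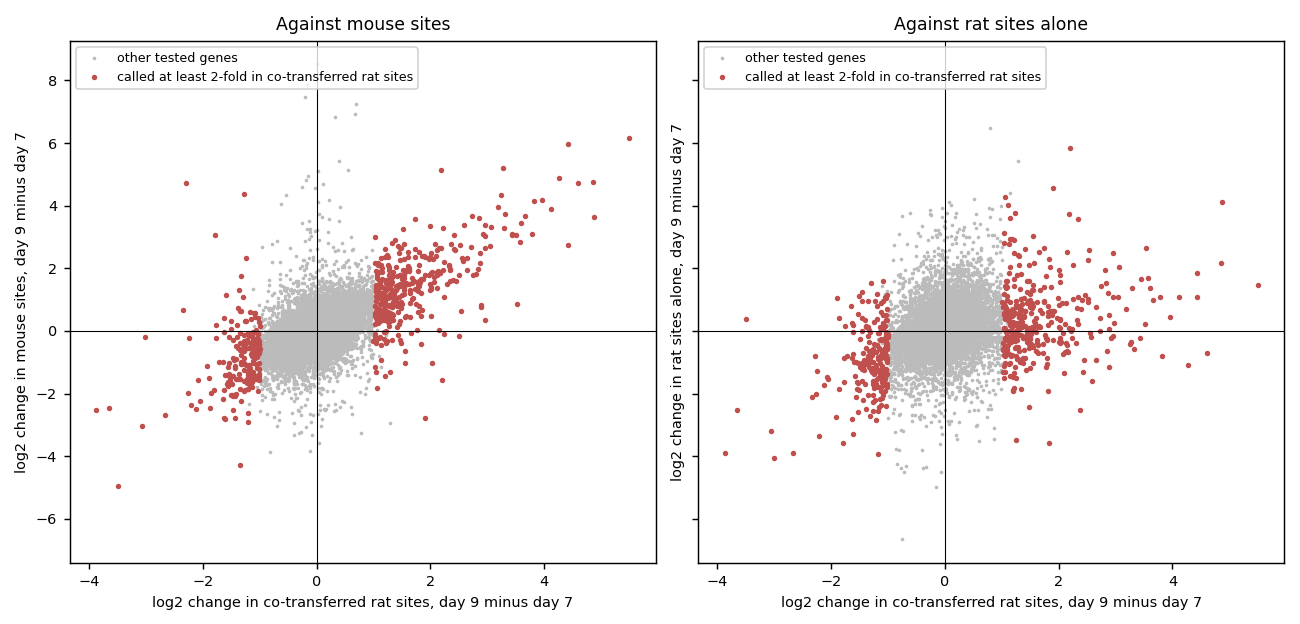
Log2 change from day 7 to day 9 of each tested gene in co-transferred rat sites (horizontal axis) against that in mouse sites (left) and in rat sites alone (right); red points are the 569 genes called and at least 2-fold apart in co-transferred sites. Among the red points, 509 have the same sign in mouse sites and 386 in rat sites alone.

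The test of the difference of the day changes called 2270 of 12003 genes against mouse sites (18.9%), 1219 higher (10.2%) and 1051 lower (8.76%), and 3432 against rat sites alone (28.6%), 1784 higher (14.9%) and 1648 lower (13.7%). The balance of directions depended on scaling. At the level of probe sets, 48.1% of calls against mouse sites and 47.4% against rat sites alone were higher, and after centring each array on its median these shares were 80.3% and 71.5%, since the centring moved the median difference of all genes from −0.02 to 0.27 and from −0.04 to 0.21. Against mouse sites, 5 of the 6 largest negative differences were in embryonic globins (Hbb-y, Hbb-bh1 and Hba-x) and trophoblast prolactins (Prl4a1 and Prl7a1), from −8.51 for Hbb-y to −6.52 for Hba-x. The other, of −7.00, was in Car3, a carbonic anhydrase of fat and muscle, which fell in co-transferred sites from 474, 526 and 418 to 17.4 and 99.2 on 1 of its 2 probe sets and rose in mouse sites from a mean of 297 to 9233. The adipocyte gene Adipoq had a difference of −4.86.

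The largest positive differences against mouse sites were in 6 genes that all fell there, of which Sprr2f, Mmp13 and Lcn2 rose in co-transferred sites and Mmp10, Ptgs2 and Dio2 were not called. Sprr2f fell in mouse sites from a mean of 12215 to 1718, and Lcn2 from 7520 to 2474. Dio2, which activates thyroid hormone, read 777, 759 and 739 and then 792 and 770 in co-transferred sites, while it fell from 7461 to 576 in mouse sites and rose from 670 to 9747 in rat sites alone. Ptgs2 showed the same arrangement, with 5252 to 321 in mouse sites and 275 to 3001 in rat sites alone. On day 7, therefore, both genes were much lower in co-transferred sites than in mouse sites, and on day 9 the order of the signals was co-transferred sites and mouse sites within a factor of 2 of each other, and rat sites alone far above.

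Against rat sites alone, the largest positive differences were in Prl3c1, Angpt4, Psca, Mrgprg, Hephl1, a copper oxidase, and Tdo2, and the largest negative ones in Mmp13, the mucin Muc1, the calcium-binding protein Calb1, Krt20, Mmp10 and Clca1. Hephl1 read 968, 799 and 861 and then 4949 and 4553 in co-transferred sites and fell from a mean of 874 to 104 in rat sites alone. Muc1 read 112, 75.7 and 80.3 and then 29.9 and 29.7 and was not called, and it rose from 171 to 2518 in rat sites alone. Calb1 fell from 215, 212 and 198 to 111 and 123, against a rise from 173 to 3096. The day 7 arrays of rat sites alone had been processed in another wash run than those of co-transferred sites, and the 2 groups correlated at 0.970 on that day. On day 9, when both were in 1 run, they correlated at 0.868.

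**Figure D5:**
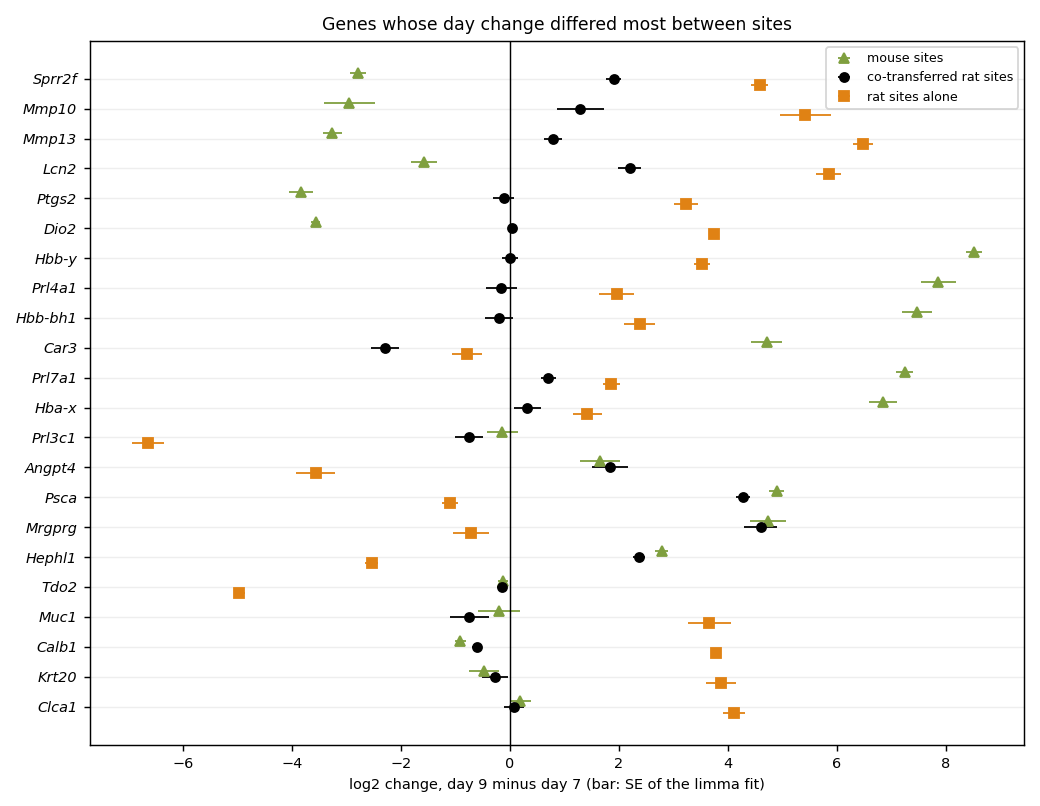
Log2 change from day 7 to day 9 (horizontal axis, bars are standard errors of the limma fit) in mouse sites, co-transferred rat sites and rat sites alone for the genes with the largest differences between day changes. Embryonic genes such as Hbb-y move in mouse sites (8.51) and to a lesser extent in rat sites alone (3.52), and epithelial genes such as Krt20 move in rat sites alone (3.87), while the co-transferred sites lie near 0 for both.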

How the data were processed

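The deposited values are MAS5 signals per probe set of the Affymetrix Mouse430_2 array, a linear intensity that the authors scaled per array, per the submitters' processing notes (version not given in the sources used here). Per the labels' protocols, RNA was extracted with TRIzol and RNeasy and about 8 µg was labelled as biotin cRNA. AFFX controls were left out. Signals were taken as log2(signal + 57.1), the added value being the 25th percentile. Probe sets above their array's 60th percentile on at least 2 arrays were tested with limma 3.58.1 in R 4.3.3, 1 model over the 6 groups, with Benjamini-Hochberg adjustment over 22138 probe sets. Residual degrees of freedom were 7. Each gene was represented by its brightest tested probe set on the log2 scale. Symbols came from the platform annotation: 34958 probe sets had 1 symbol, 932 several and 9211 none. The code was tested on simulated data.

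Genes were named by rule: the 12 largest rises and falls, in each list up to 4 called genes each way and the first 2 listed, and the 6 largest differences each way for each other kind of site. The 35 lists and all members were chosen with earlier results of these data known. Replicate numbers were not treated as pairs. Deviations from the day means correlated at −0.034 between the arrays numbered 1 and at 0.039 between those numbered 2. The 2 day 9 arrays deviate from their mean by equal and opposite amounts, so these values cannot show whether the numbers pair arrays. Wash runs were built from the hybridisation times in the array headers, a gap of more than 30 minutes starting a new run. Array number limits the precision. Alternatives were other offsets, filters and scalings, a replicate block, other batch terms, and leaving out each array.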

Additional observations from a re-analysis of the deposited data

Results flagged for a closer look

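Of the differences between day changes (day 9 minus day 7 on the log2 scale, limma), the 6 largest in each direction are given for each other kind of site, all past the adjusted threshold. Against mouse sites, co-transferred rat sites had the higher day change in Sprr2f (4.69), Mmp10 (4.25), Mmp13 (4.06), Lcn2 (3.78), Ptgs2 (3.71) and Dio2 (3.61). They had the lower one in Hbb-y (−8.51), Prl4a1 (−8.03), Hbb-bh1 (−7.67), Car3 (−7), Prl7a1 (−6.55) and Hba-x (−6.52).

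Against rat sites alone, the day change was higher in Prl3c1 (5.89), Angpt4 (5.4), Psca (5.37), Mrgprg (5.31), Hephl1 (4.91) and Tdo2 (4.82). It was lower in Mmp13 (−5.69), Muc1 (−4.41), Calb1 (−4.38), Krt20 (−4.14), Mmp10 (−4.13) and Clca1 (−4.04). Mmp10 and Mmp13 appear in both comparisons with opposite signs, and these comparisons share the arrays of the co-transferred sites.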

How the results depend on the processing

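No day change of a gene named by rule that was called changed sign. The balance of the differences did turn with scaling, from more lower than higher calls to more higher than lower under median centring. For the day change, 5577 probe sets were called (2388 higher, 3189 lower), and leaving out 1 array gave 3296 to 4864 (1467 to 2175 higher, 1829 to 2695 lower). Without the filter 2116 were lower. For the difference from mouse sites, 4163 were called (2001 higher, 2162 lower), and 2438 to 4179 with 1 array left out (1133 to 2127 higher, 1266 to 2074 lower). Leaving out arrays of the other sites was chosen after seeing the data. Without the filter these counts were 2446, 1065 and 1381, and under median centring 3988 were higher and 980 lower. For the difference from rat sites alone, 5780 were called (2742 higher, 3038 lower), and 4210 to 5644 with 1 array left out (2049 to 2654 higher, 2156 to 2990 lower), and median centring gave 1587 lower. The centring moved the median of all genes, and the cause of the other shifts was not tested. Whether replicate numbers pair arrays is not known. With a replicate block the counts were 4534 for the day change, 3111 for the difference from mouse sites and 4908 for that from rat sites alone. Of 222 called genes named by rule, 172 kept their call under every alternative run and 50 lost it under at least 1, most often without replicate 1 (37) or 2 (35) of day 9. The counts higher for natural killer, class I and interferon genes and lower for replication genes stayed within 1.5 times under every alternative run. Without the filter, smooth muscle had 5 genes lower, matrix 7 higher, early response 6 lower, lipid 4 lower, retinoid 5 lower, erythroid 2 higher and embryo genes 2 higher.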

Other observations

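Tmem14c, a mitochondrial protein of heme synthesis that was in no list, was chosen after its values were seen. It read 140 and 119.4 in rat sites alone on day 7 and 603.1 to 1565.5 on the other 11 arrays, which included all 5 arrays of the co-transferred rat sites.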
